A study of Homo sapiens with 6 samples.

Results

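The centromere is the stretch of chromatin on which each chromosome builds its kinetochore, the protein machine that holds spindle microtubules at cell division. The genes described here are 40 human genes that encode these proteins, their assembly factors and the checkpoint kinases that sit on them. They are 40 of the 35052 genes with a listed transcript, and all 40 passed the filter on low counts, among 13131 genes tested. The symbols were grouped by function, but the list, and CENPU within it, were chosen from fold changes and p-values of the same ATF3 knockout against wild type contrast reported below. Their values in that contrast are therefore given as a description.

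The data were poly(A) RNA-seq libraries of EoL-1, a human line derived from an eosinophilic leukaemia. The groups were 3 libraries of ATF3 knockout EoL-1 cells, which the sample labels say were made with CRISPR/Cas9, and 3 libraries of wild type EoL-1 cells. The series' design line calls the derivative a knockdown. Both groups were grown in RPMI medium with fetal bovine serum and antibiotics. The labels name no clone, guide or vector control and do not say whether the replicates were separate cultures, so the p-values rest on the spread among these libraries alone, which may be technical. ATF3, the targeted gene, encodes a bZIP transcription factor induced by stress. It stood at 5.62, 8.33 and 4.52 CPM (reads scaled to library size) in knockout replicates 1, 2 and 3, against 22.9, 16.2 and 23.0 CPM in wild type replicates 1, 2 and 3. Its mRNA was thus lower in every knockout library, at 29.7% of the wild type level, and still present.

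In the inner kinetochore, nucleosomes that contain the histone variant CENP-A are read by CENP-C and by a constitutive network of further CENP proteins, which stay on the centromere through the cell cycle. The parts of the network described here are CENP-M and the CENP-T-W, CENP-H-I-K, CENP-L-N and CENP-O complexes. CENP-O, CENP-P, CENP-Q, CENP-R and CENP-U form the last of these, and CENP-U recruits the mitotic kinase PLK1. In mitosis the network and CENP-C carry the outer KNL1, MIS12 and NDC80 complexes, which bind microtubules and the spindle checkpoint kinases. Many of these genes are transcribed mainly in dividing cells.

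The promoters of CENPU, of its 3 partners and of NDC80 are shown because CENPU had the largest fitted change among the 40 genes, the partners are the complex it is set against, and NDC80 was 1 of 3 members with a match to the cAMP response element, a site that ATF-family factors bind. Each is the RefSeq sequence (GRCh38.p14) from 250 bases before to 50 bases after the gene's start, read 5' to 3' along the gene's strand. They lie at chr4:184734047-184734346 (minus strand) for CENPU, chr2:24793175-24793474 (plus) for CENPO, chr9:92325218-92325517 (plus) for CENPP, chr6:49463120-49463419 (plus) for CENPQ and chr18:2571307-2571606 (plus) for NDC80. Capitals mark matches, on either strand, to the cAMP response element TGACGTCA, the AP-1 site TGANTCA, the E2F site TTNGCGC, the cell cycle homology region TTTGAA or the CCAAT box CCAAT.
CENPU: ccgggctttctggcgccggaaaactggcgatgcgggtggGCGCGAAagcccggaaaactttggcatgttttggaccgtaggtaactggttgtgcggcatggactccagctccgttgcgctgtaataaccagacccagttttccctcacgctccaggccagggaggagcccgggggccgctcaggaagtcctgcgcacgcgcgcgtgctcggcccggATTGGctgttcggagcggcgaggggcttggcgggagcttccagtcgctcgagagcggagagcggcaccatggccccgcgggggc
CENPO: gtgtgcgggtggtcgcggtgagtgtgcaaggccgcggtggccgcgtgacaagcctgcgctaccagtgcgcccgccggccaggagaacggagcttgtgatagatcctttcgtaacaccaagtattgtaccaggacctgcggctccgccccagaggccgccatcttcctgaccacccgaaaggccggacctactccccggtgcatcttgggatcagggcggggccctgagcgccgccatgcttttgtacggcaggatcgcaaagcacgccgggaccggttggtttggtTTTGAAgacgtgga
CENPP: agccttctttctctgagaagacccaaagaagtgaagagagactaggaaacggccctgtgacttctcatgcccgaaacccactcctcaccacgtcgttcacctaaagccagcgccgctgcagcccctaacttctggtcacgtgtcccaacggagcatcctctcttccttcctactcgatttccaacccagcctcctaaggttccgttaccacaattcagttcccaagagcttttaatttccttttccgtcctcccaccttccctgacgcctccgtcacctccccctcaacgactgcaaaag
CENPQ: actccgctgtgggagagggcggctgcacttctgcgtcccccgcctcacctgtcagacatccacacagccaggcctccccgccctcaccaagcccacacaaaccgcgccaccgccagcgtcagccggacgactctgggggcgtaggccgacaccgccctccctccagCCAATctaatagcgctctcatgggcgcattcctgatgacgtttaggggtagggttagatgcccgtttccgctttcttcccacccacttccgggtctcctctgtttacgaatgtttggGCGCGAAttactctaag
NDC80: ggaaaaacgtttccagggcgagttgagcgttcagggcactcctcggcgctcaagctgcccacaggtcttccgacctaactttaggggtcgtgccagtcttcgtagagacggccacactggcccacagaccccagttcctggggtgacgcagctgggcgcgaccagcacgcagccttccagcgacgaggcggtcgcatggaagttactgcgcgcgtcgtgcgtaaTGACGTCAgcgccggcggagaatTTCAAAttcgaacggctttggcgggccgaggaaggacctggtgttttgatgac

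The CENPU promoter held an E2F match at position -211 and a CCAAT match at position -34 from the start, and CENPQ held the same pair, at 34 and -84. CENPO held 1 cell cycle homology region, at position 37, and CENPP held none of the 5 motifs. The NDC80 promoter held the cAMP response element at position -26 and a cell cycle homology region at position -3. Promoters were found for 32 of the 40 genes. The cAMP response element was in 3 of them (CENPE, CENPW and NDC80, 9.38%), against 1.85% of 35116 promoters of all genes. Of these 3 genes, NDC80 passed the edgeR test given below, and CENPE and CENPW did not. The AP-1 site was in 0 of the 32, against 7.71% of all promoters. The E2F site was in 9 (28.1%, against 7.81%), the cell cycle homology region in 16 (50.0%, against 15.2%) and the CCAAT box in 20 (62.5%, against 34.6%). The 32 hold 1 promoter per gene. The 35116 hold every promoter listed at the full window length, including those of genes not tested, so the sets are unlike. A match says only that these letters are in the window.

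The libraries held 26766103 to 30117281 estimated reads. On a principal component analysis, the first component (42.1% of the variance) separated the groups, with wild type replicate 2 at 13.5 nearer to the knockout libraries than the other wild type libraries, at 34.9 and 37.9. Knockout replicate 3 stood apart on the second component (21.1%), at -41.7 against -11.1 to 21.6 for the other 5 libraries. The labels call the cells eosinophils. Of 10 eosinophil markers, PRG3, CLC, IL5RA and GATA1 were listed at 0 reads in all 6 libraries, EPX had 2 reads in 1 library, and PRG2, CCR3 and SIGLEC8 reached at most 1.65 CPM. RNASE2 and RNASE3, which encode eosinophil granule ribonucleases, were the only markers past the filter. RNASE2 stood at 93.2 to 152 CPM in knockout libraries and 29.4 to 40.9 CPM in wild type libraries. RNASE3 stood at 22.5 to 29.9 CPM in knockout libraries and 6.81 to 10.7 CPM in wild type libraries. Both were called higher by the edgeR test given below, against 11.4% of all genes tested. The log2 fold changes were 1.86 for RNASE2 and 1.65 for RNASE3 (adjusted p = 0.0081 for each by edgeR).

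Across the 40 genes the knockout libraries were mostly lower. By edgeR's quasi-likelihood test with Benjamini-Hochberg adjustment over all genes (adjusted p under 0.05), 13 members were called lower (32.5%, against 9.72% of all genes tested) and 0 were called higher (against 11.4% of all genes). The 27 others did not pass. At an unadjusted p under 0.05, 20 members were lower and 1, CENPI, was higher, against 2308 lower and 2595 higher of the 13131 genes tested. The median log2 fold change of the members was -0.29, against 0.01 over all genes tested, with 30 values below 0 and 10 above. Every knockout library lay below every wild type library for 23 of the 40 members, against 21.4% of all genes. It lay above for 2 of the 40, CENPI and CENPT, against 22.2% of all genes. The other 15 members overlapped. Without CENPU the count was 12 of 39 and the median stayed at -0.29. The members' calls, unlike their signs, rested on particular libraries, and the calls over all genes moved as well. The count of members called lower by edgeR was 0 with wild type replicate 1 left out (15 at an unadjusted p under 0.05, and 10 called by DESeq2), 2 with its replicate 3 left out and 10 with its replicate 2 left out. It was 5, 11 and 12 when knockout replicate 1, 2 or 3 was dropped, and all 13 fold changes kept their sign each time. Over all genes, 1276 were called lower in the full fit, and 0, 1131 and 148 without wild type replicate 1, 2 or 3. Without knockout replicate 1, 2 or 3 that count was 665, 792 and 1388. With transcript lengths as an offset 7 members were called lower, 6 of the 13 (CENPH, CENPK, CENPN, CENPU, NDC80 and MAD2L1) and CENPO. Over all genes 660 were called lower with the offset. In bulk RNA, fewer dividing cells and less RNA per cell cannot be told apart.

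**Figure D1:**
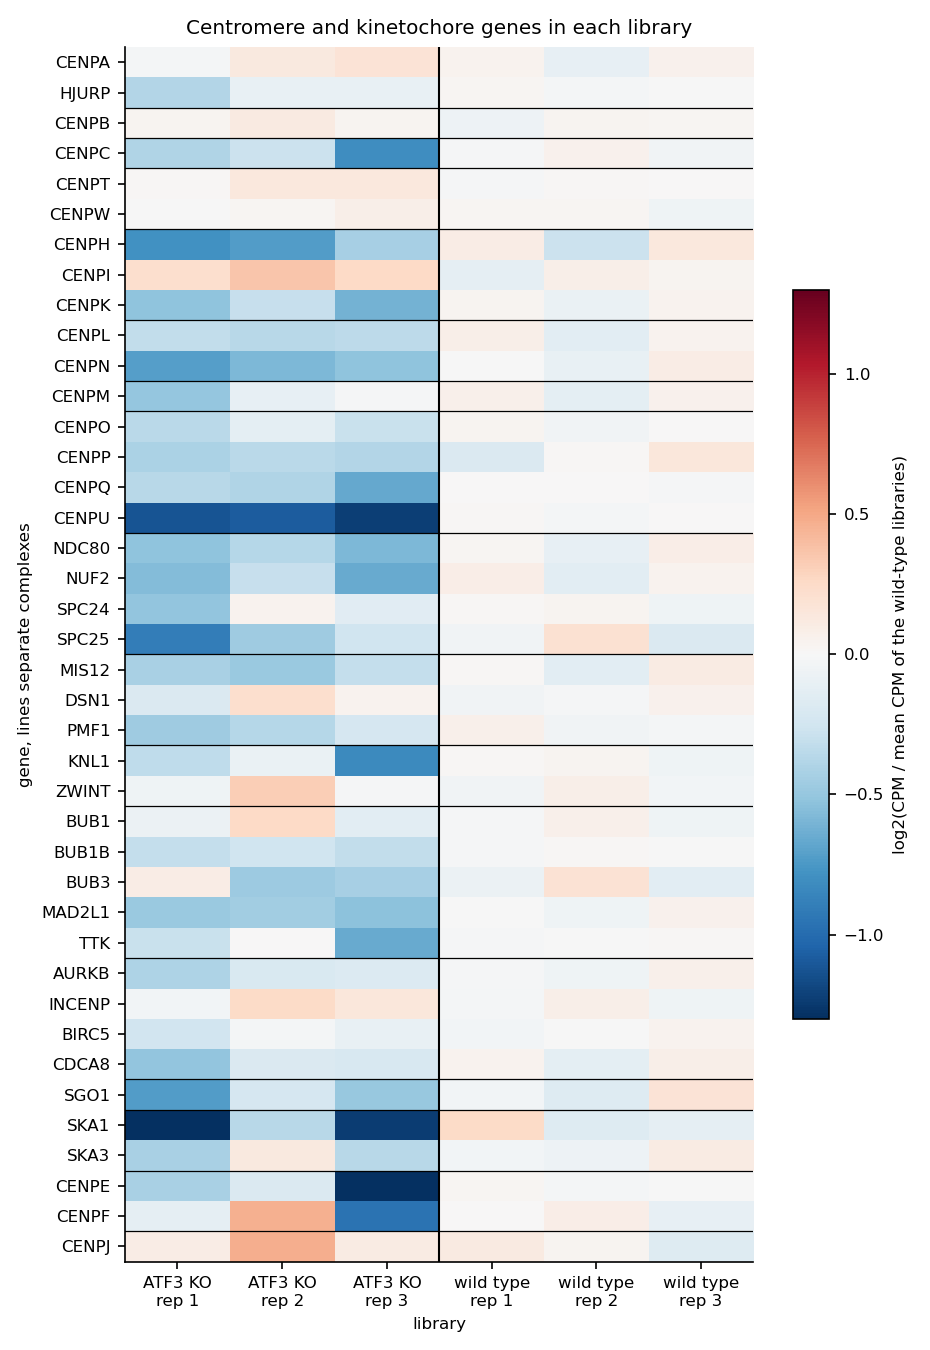
Colour shows log2 of each gene's CPM over the mean of the wild type libraries, with ATF3 knockout replicates in the left columns, wild type replicates in the right columns, and lines between complexes. CENPU is the row with dark blue in all 3 knockout libraries, while SKA1, CENPE and CENPF differ between knockout replicates.

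**Figure D2:**
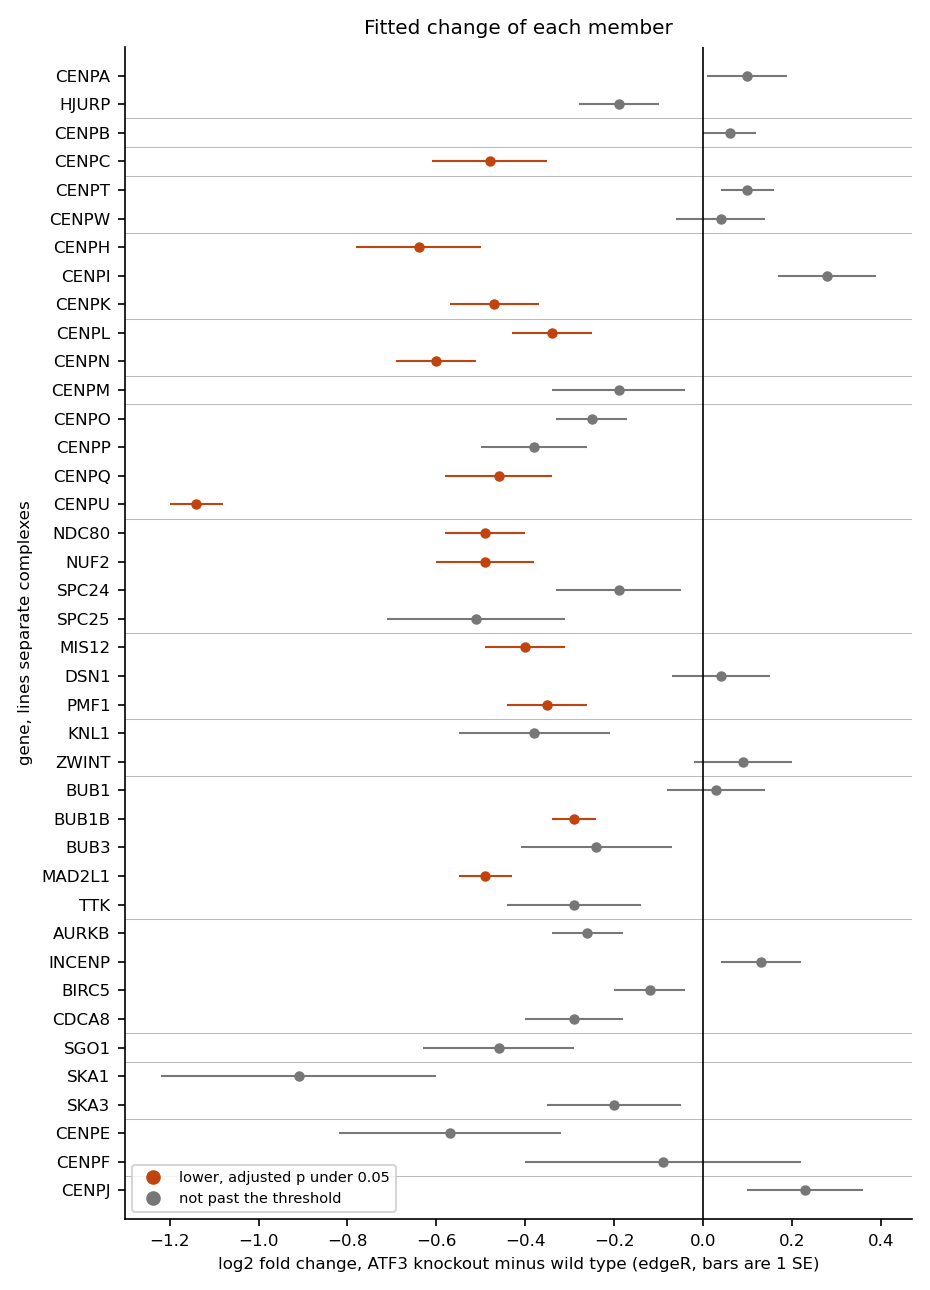
Points are edgeR log2 fold changes, ATF3 knockout minus wild type, with bars of 1 SE, and colour marks the 13 genes called lower. Fitted values run from -1.14 for CENPU to 0.28 for CENPI.

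Among the members, CENPU fell furthest. CENPU (ENSG00000151725.11, chromosome 4, 184694618 to 184734133 on the minus strand of GRCh38) had 42.8, 44.2 and 39.9 CPM in knockout libraries, against 94.3, 91.8 and 94.0 CPM in wild type libraries. The groups were far apart and each was tight, with means of 42.3 ± 2.21 CPM in knockout and 93.4 ± 1.36 CPM in wild type (SD, n = 3 each). The fitted log2 fold change was -1.14 (SE 0.06, adjusted p = 0.00613 by edgeR), which is 2.21-fold lower, or 45.3% of wild type. CENPU had the smallest p-value of the 13131 genes, while by size of fall it ranked 93 among the 1276 genes called lower. Without wild type replicate 1 the fold change was the same and the adjusted p was 0.0503, the smallest of all genes in that fit. In some other edgeR fits the smallest adjusted p belonged to another gene. It was 0.00751 with replicate number as a block (0.0114 for CENPU) and 0.00798 with protein-coding transcripts alone (0.00859 for CENPU). Without wild type replicate 2 it was 0.00696 (0.00722 for CENPU).

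The other members of its complex were lower too, by less. CENPO, which pairs with CENP-P at the base of the complex, had 26.7, 31.0 and 27.8 CPM in knockout libraries, against 34.8, 32.9 and 34.2 CPM in wild type. CENPP had 9.08, 9.46 and 9.25 CPM in knockout, against 10.6, 12.2 and 13.4 CPM in wild type. CENPQ, the direct partner of CENP-U and itself a microtubule binder, had 11.2, 10.9 and 9.05 CPM in knockout, against 14.4, 14.4 and 14.2 CPM in wild type. In all 3, every knockout library lay below every wild type library, against 21.4% of all genes tested. Yet only CENPQ passed the test, with a log2 fold change of -0.46 (SE 0.12, adjusted p = 0.0346). The fold change was -0.25 for CENPO (SE 0.08, adjusted p = 0.062) and -0.38 for CENPP (SE 0.12, adjusted p = 0.0697). Which of them passed depended on the setting. CENPQ missed the threshold with the length offset (adjusted p = 0.0733), and in 5 of the 6 fits that left out a library (0.0578 to 0.122). CENPO passed with DESeq2 (0.0413), with the length offset, where its fold change was -0.49 (0.029), and without knockout replicate 2 (0.0442). CENPP passed with DESeq2 (0.0437), and its fold change with the offset was -0.64 (0.0754). ITGB3BP, which encodes CENP-R and is not among the 40, fell as well: it had 15.9, 16.7 and 15.0 CPM in knockout, against 21.8, 20.2 and 22.2 CPM in wild type (log2 fold change -0.43, SE 0.08, adjusted p = 0.0179). Exons of CENPO share 1488 bases with ADCY3 on the other strand, and exons of CENPP share 3719 with IPPK. The strand setting of the counting is not stated, so some of their reads may belong to those genes.

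CENPU thus moved in the same direction as its complex and further than it. Within each library, the log2 CPM of CENPU less the mean of CENPO, CENPP and CENPQ was 1.61, 1.58 and 1.58 in knockout libraries, against 2.43, 2.35 and 2.33 in wild type libraries. The group means, 1.59 ± 0.02 in knockout and 2.37 ± 0.05 in wild type (SD, n = 3 each), differed by -0.78. On the deposited TPM, which follow the mix of transcripts, the same quantity was 2.83, 2.66 and 2.67 in knockout, against 3.31, 3.18 and 3.22 in wild type, and the difference was -0.52, as it was between the fold changes fitted with the length offset. The groups did not overlap on either scale. In CPM, set against single genes, the difference was -0.89 for CENPO, -0.77 for CENPP, -0.68 for CENPQ and -0.71 for ITGB3BP. Against the other inner kinetochore genes it ran from -1.42 for CENPI to -0.51 for CENPH, and every knockout library lay below every wild type library in each of the 13 pairs. The 13 pairs share the same CENPU values, and CENPU was chosen from this contrast. Their separation is therefore a description and adds no support. Per length, CENPU was the most abundant gene of the complex in both groups, at 37.9 ± 2.84 TPM (reads scaled by transcript length and library) in knockout and 75.1 ± 4.05 TPM in wild type. CENPO stood at 11.3 ± 0.965 TPM in knockout and 15.2 ± 0.91 TPM in wild type, CENPQ at 6.19 ± 0.872 and 8.14 ± 0.148 TPM, and CENPP at 2.75 ± 0.302 and 4.12 ± 0.829 TPM (SD, n = 3 each).

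**Figure D3:**
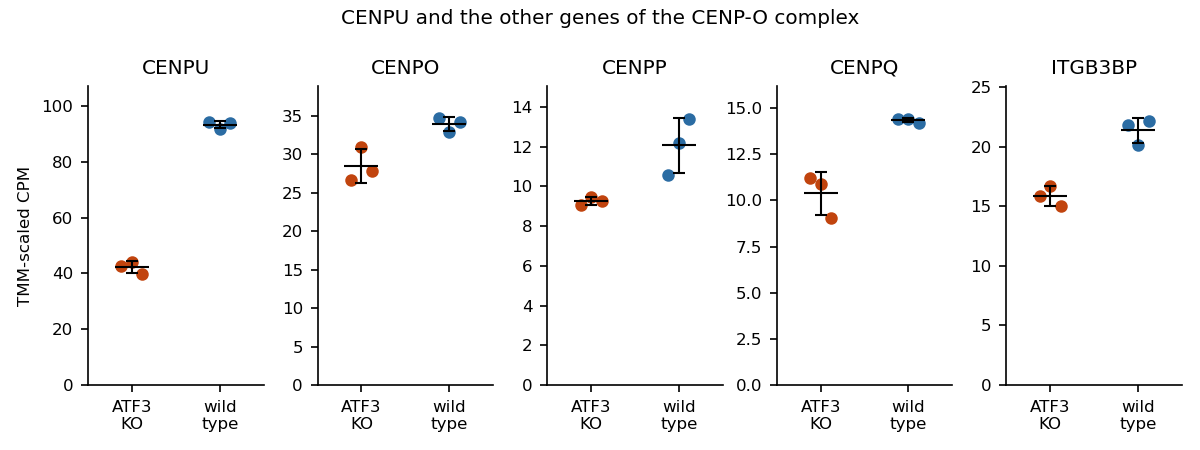
Points are the TMM-scaled CPM of each library, ATF3 knockout left of wild type, with the mean and SD, each gene on its own axis from 0. CENPU libraries sit at 39.9 to 44.2 CPM in knockout and 91.8 to 94.3 CPM in wild type, and the other 4 genes show smaller gaps.

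The fall of CENPU ran through most of its annotated transcripts. Of 6 transcripts with over 20 estimated reads in all, 5 were lower in every knockout library and 1 overlapped. These are reads not scaled to library size, and the share over all transcripts was not computed. Of all genes tested, in CPM, 21.4% were lower in every knockout library. The full-length coding transcript CENPU-201 had 412, 494 and 363 reads in knockout libraries, against 1023, 1047 and 1005 in wild type libraries. CENPU-205, annotated as a target of nonsense-mediated decay, had 415, 448 and 537 reads in knockout, against 1098, 930 and 1137 in wild type. These transcripts made up much the same share of the gene's reads in both groups, 36.3% in knockout and 39.4% in wild type for CENPU-201, and 40.1% in knockout and 40.6% in wild type for CENPU-205. The exception was CENPU-204, a retained-intron transcript with 24.0, 21.3 and 21.2 reads in knockout, against 58.8, 62.1 and 18.9 in wild type. Transcript reads are estimates that can trade between overlapping transcripts: CENPO-202 was given 270 reads in knockout replicate 1 and 0 in the other 5 libraries, while CENPO-201 had 0 in knockout replicate 1 and 384 to 572 elsewhere.

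**Figure D4:**
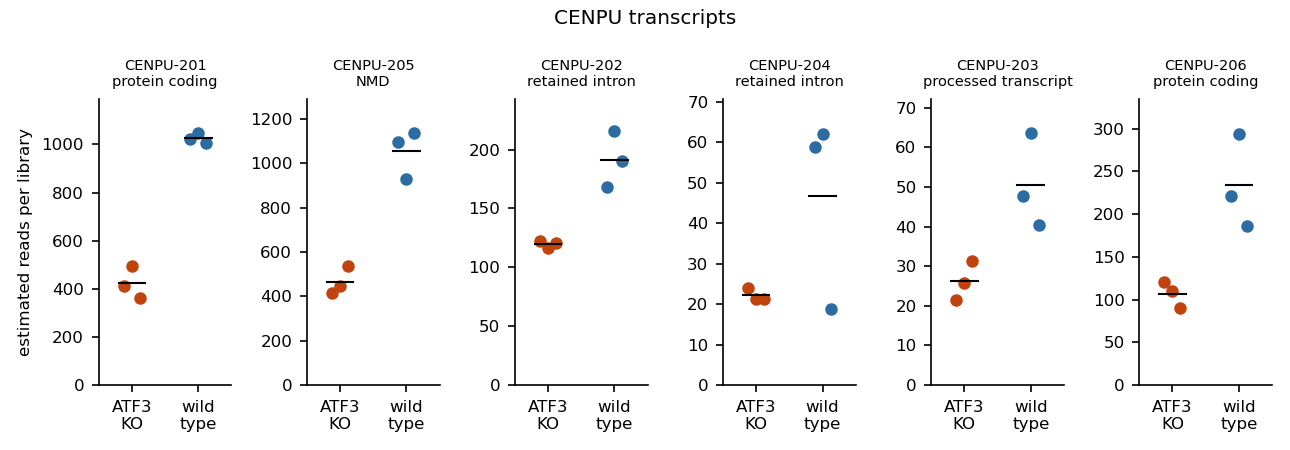
Points are estimated reads per library for the 6 CENPU transcripts, ATF3 knockout left of wild type, bars mark means, and each axis starts at 0. The groups separate for 5 transcripts, and for CENPU-204 wild type replicate 3, at 18.9 reads, lies with the knockout libraries.

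Of the 10 tested genes nearest to CENPU, 5 on each side, 1 was called lower (against 9.72% of all genes tested) and 2 higher (against 11.4%). PRIMPOL, a primase-polymerase whose exons share 346 bases with CENPU on the other strand, had 19.8, 21.0 and 18.4 CPM in knockout, against 22.6, 22.3 and 24.3 CPM in wild type (log2 fold change -0.22, adjusted p = 0.0994). ACSL1, on the far side, had a log2 fold change of -0.06 (adjusted p = 0.857). IRF2, an interferon regulatory factor, was called higher (0.40, adjusted p = 0.0181). CFAP97 was the one called lower (-0.49, adjusted p = 0.0336).

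At the centromeric chromatin itself, only CENPC passed the test. CENPA, the centromeric histone, had 16.5, 18.4 and 19.0 CPM in knockout libraries, against 17.3, 15.6 and 17.5 CPM in wild type libraries. HJURP, its loading chaperone, had 31.7, 38.5 and 38.5 CPM in knockout, against 42.1, 40.6 and 41.0 CPM in wild type. CENPB, which binds a DNA box in alpha satellite repeats, had 69.1, 73.2 and 69.3 CPM in knockout, against 64.6, 69.3 and 68.4 CPM in wild type. Only HJURP was apart between groups, and none of the 3 passed (log2 fold changes 0.10, -0.19 and 0.06). CENPC (chromosome 4, 67468748 to 67545606, minus strand), which links CENP-A nucleosomes to the outer kinetochore, had 46.9, 50.7 and 35.2 CPM in knockout, against 61.1, 64.0 and 59.7 CPM in wild type. Its groups did not overlap, and it fell by 0.48 on the log2 scale (SE 0.13, adjusted p = 0.0453). The exons of CENPA share 138 bases with SLC35F6 on the same strand.

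The histone-fold pair CENP-T and CENP-W, which forms the other route to the outer kinetochore, was not lower. CENPT had 56.5, 61.5 and 61.2 CPM in knockout libraries, against 55.1, 56.3 and 55.9 CPM in wild type, a small separation upward that did not pass (log2 fold change 0.10, adjusted p = 0.298). Its exons overlap THAP11 and NUTF2 on the other strand. CENPW ranged from 11.4 to 12.1 CPM in knockout and from 11 to 11.7 CPM in wild type, with overlap.

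The CENP-H-I-K and CENP-L-N groups, which tie CENP-C and the CENP-A nucleosome into the network, held 4 of the 13 members called lower. CENPH (chromosome 5, 69189548 to 69210357, plus strand) had 25.8, 26.9 and 33.1 CPM in knockout, against 47.8, 36.8 and 49.2 CPM in wild type. CENPK (chromosome 5, 65517766 to 65563171, minus strand) had 24.3, 28.4 and 22.7 CPM in knockout, against 35.8, 32.7 and 36.0 CPM in wild type. Neither overlapped, and the log2 fold changes were -0.64 for CENPH (SE 0.14, adjusted p = 0.0249) and -0.47 for CENPK (SE 0.10, adjusted p = 0.0218). CENPI, the third protein of that complex, went the other way with 10.8, 11.9 and 11.1 CPM in knockout, against 8.51, 9.77 and 9.48 CPM in wild type. It had the highest fitted value of the 40 genes, 0.28 (SE 0.11), and did not pass (adjusted p = 0.121). CENPN (chromosome 16, 81006498 to 81033114, plus strand), which reads the CENP-A nucleosome directly, had 16.5, 18.0 and 18.8 CPM in knockout, against 26.9, 25.2 and 29 CPM in wild type. CENPL (chromosome 1, 173799550 to 173824720, minus strand), its partner, had 14.1, 13.7 and 13.9 CPM in knockout, against 18.6, 16 and 18.2 CPM in wild type. Both were apart, with log2 fold changes of -0.60 for CENPN (SE 0.09, adjusted p = 0.0101) and -0.34 for CENPL (SE 0.09, adjusted p = 0.0453). Exons of CENPN share 457 bases with CMC2 on the other strand. CENPM overlapped, with 9.31, 12.3 and 13.1 CPM in knockout and 13.8, 12.1 and 13.7 CPM in wild type. Over the 13 members listed here for the constitutive network, from CENPC to CENPU, 7 were called lower (against 9.72% of all genes tested) and the median log2 fold change was -0.38.

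The outer kinetochore showed the same mixture of falls and overlaps, with 4 of 9 genes called lower (against 9.72% of all genes tested) and a median log2 fold change of -0.38. NDC80 (chromosome 18, 2571511 to 2616635, plus strand), the main microtubule-binding subunit, had 27.6, 30.7 and 26.6 CPM in knockout libraries, against 40.3, 36.8 and 42.1 CPM in wild type. Its coiled-coil partner NUF2 (chromosome 1, 163266576 to 163355764, plus strand) had 25.7, 30.9 and 24.1 CPM in knockout, against 40.2, 34.5 and 39.0 CPM in wild type. Both were lower without overlap, each with a log2 fold change of -0.49, and with adjusted p = 0.0141 for NDC80 and 0.026 for NUF2. For NUF2 the per-length level was unsteady, 31.7 ± 15.5 TPM in knockout and 38.8 ± 17.8 TPM in wild type (SD, n = 3 each), and with transcript lengths as an offset its fold change was -0.35 (SE 0.43, adjusted p = 0.626). SPC24 and SPC25, which anchor the complex inward, did not pass. SPC25 was apart, at 4.65 to 7.23 CPM in knockout and 7.58 to 9.94 CPM in wild type, and SPC24 overlapped, at 22.2 to 32.8 CPM in knockout and 30.5 to 32.6 CPM in wild type.

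In the MIS12 complex, which bridges CENP-C and NDC80, both MIS12 and PMF1 fell. MIS12 (chromosome 17, 5486285 to 5490814, plus strand) had 29.3, 28.2 and 31.8 CPM in knockout, against 39.8, 35.8 and 42.4 CPM in wild type (log2 fold change -0.40, SE 0.09, adjusted p = 0.0237). PMF1 (chromosome 1, 156212993 to 156240042, plus strand) had 19.7, 21.0 and 23.4 CPM in knockout, against 28.5, 26.4 and 26.6 CPM in wild type (-0.35, SE 0.09, adjusted p = 0.0351). Neither overlapped between groups, and with the length offset neither passed (adjusted p = 0.112 for MIS12 and 0.0704 for PMF1). PMF1 shares 587 exon bases with the read-through gene PMF1-BGLAP on the same strand, so the split of reads between them is uncertain, and MIS12 shares 301 with DERL2 on the other strand. DSN1 overlapped, at 19.8 to 26.1 CPM in knockout and 21.8 to 23.4 CPM in wild type. KNL1, the scaffold for checkpoint kinases, had 73.3, 86.4 and 51.9 CPM in knockout, against 92.7, 94.6 and 88.7 CPM in wild type, and its partner ZWINT had 80.2, 104 and 82.5 CPM in knockout, against 81.0, 87.7 and 81.6 CPM in wild type. In CPM KNL1 was apart and ZWINT overlapped, and neither passed (adjusted p = 0.151 and 0.58). Per length the groups of KNL1 overlapped, with the higher mean in knockout, at 16.2 ± 5.68 TPM against 14.6 ± 3.73 TPM in wild type (SD, n = 3 each). The sign for ZWINT (0.09) turned to -0.04 without knockout replicate 2 and to -0.01 with protein-coding transcripts alone.

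Of the 5 spindle checkpoint genes, MAD2L1 and BUB1B fell. MAD2L1 (chromosome 4, 120055608 to 120067074, minus strand) encodes MAD2, an inhibitor of the anaphase-promoting complex that is activated at unattached kinetochores. It had 90.6, 92.9 and 87.8 CPM in knockout libraries, against 126, 122 and 132 CPM in wild type libraries. In reads not scaled to library size, all 4 of its transcripts with over 20 reads were lower in every knockout library. The share over all transcripts was not computed. BUB1B (chromosome 15, 40161023 to 40221136, plus strand), which encodes BUBR1 of the same inhibitory complex, had 68.7, 71.1 and 68.0 CPM in knockout, against 84.2, 85.6 and 84.8 CPM in wild type. In CPM both had tight groups: the log2 fold change was -0.49 for MAD2L1 (SE 0.06, adjusted p = 0.0081) and -0.29 for BUB1B (SE 0.05, adjusted p = 0.0156). With the length offset BUB1B missed the threshold (-0.33, SE 0.15, adjusted p = 0.203), and per length its groups overlapped, at 26.4 ± 4.85 TPM in knockout and 31.8 ± 5.06 TPM in wild type (SD, n = 3 each). The kinases BUB1 and TTK and the adaptor BUB3 overlapped between groups. BUB3 had the highest level of the 40 genes, 202 ± 46.9 TPM in knockout and 221 ± 32.4 TPM in wild type (SD, n = 3 each), and its CPM were 341, 230 and 236 in knockout, against 303, 364 and 290 in wild type. BUB1 lay between 60.2 and 79.0 CPM in knockout and between 63.8 and 69.0 CPM in wild type, and TTK between 29.6 and 46.6 CPM in knockout and between 46.1 and 47.1 CPM in wild type.

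No gene of the chromosomal passenger complex, which corrects wrong attachments through the kinase Aurora B, passed the test. AURKB had 30.0, 34.6 and 35.2 CPM in knockout, against 39.2, 38.3 and 41.7 CPM in wild type (log2 fold change -0.26, adjusted p = 0.0722). INCENP, its scaffold, had 63.6, 77.4 and 72.2 CPM in knockout, against 63.9, 68.8 and 62.4 CPM in wild type (0.13, adjusted p = 0.337). AURKB was apart between groups and INCENP was not. CDCA8 (borealin) was apart at 34.2 to 42.8 CPM in knockout and 44.7 to 51.2 CPM in wild type, and BIRC5 (survivin) overlapped at 59.6 to 69.8 CPM in knockout and 69.0 to 72.9 CPM in wild type.

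None of SGO1, SKA1, SKA3 and CENPJ passed the test. SKA2, of the same complex as SKA1 and SKA3 but not among the 40, was called lower, as given below. SGO1, the protector of centromeric cohesin, had 7.69, 10.9 and 9.05 CPM in knockout, against 12.4, 11.3 and 14.4 CPM in wild type (log2 fold change -0.46, adjusted p = 0.0879). SKA1, of the complex that couples kinetochores to shrinking microtubules, had 1.38, 2.76 and 1.51 CPM in knockout, against 4.22, 3.16 and 3.28 CPM in wild type. Its groups did not overlap, its level per length (3.29 TPM over the 6 libraries) was the lowest of the 40 genes, and its fold change was -0.91 (SE 0.31, adjusted p = 0.0783). SKA3 overlapped, with 32.6, 47.9 and 34.0 CPM in knockout and 42.6, 41.7 and 47.0 CPM in wild type. CENPJ, a centriole protein despite its name, also overlapped, with 34.5, 44.7 and 34.8 CPM in knockout and 35.1, 33.2 and 28.7 CPM in wild type (0.23, adjusted p = 0.235).

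The corona genes CENPE, a kinesin that moves chromosomes to the spindle equator, and CENPF had their lowest values in 1 knockout library. CENPE had 50.2, 59.0 and 27.0 CPM in knockout, against 68.4, 66.1 and 67.0 CPM in wild type, and CENPF had 184, 275 and 103 CPM in knockout, against 201, 213 and 186 CPM in wild type. In both genes knockout replicate 3 was the low library. The fitted log2 fold change of CENPE was -0.57 (SE 0.25, adjusted p = 0.155) and became -0.31 without that replicate (adjusted p = 0.0509). That of CENPF was -0.09 and turned to 0.19 without it (adjusted p = 0.448). These genes have long transcripts, with mean effective lengths of 4147 bases for CENPE and 5829 for CENPF. Knockout replicate 3 over the mean of the other 2 knockout libraries stood at -1.16 on the log2 scale for CENPF, -1.01 for CENPE and -0.62 for KNL1 (4801 bases), the 3 members over 4000 bases. Members up to 4000 bases had a median of -0.03, and CENPU was at -0.13. Across the 40 members the Spearman correlation of this ratio with length was -0.47, and across the 13131 tested genes, which come from the same libraries, it was -0.20. The 1966 tested genes over 4000 bases had a median of -0.10. The part of transcript length and of that library in these values was not tested.

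**Figure D5:**
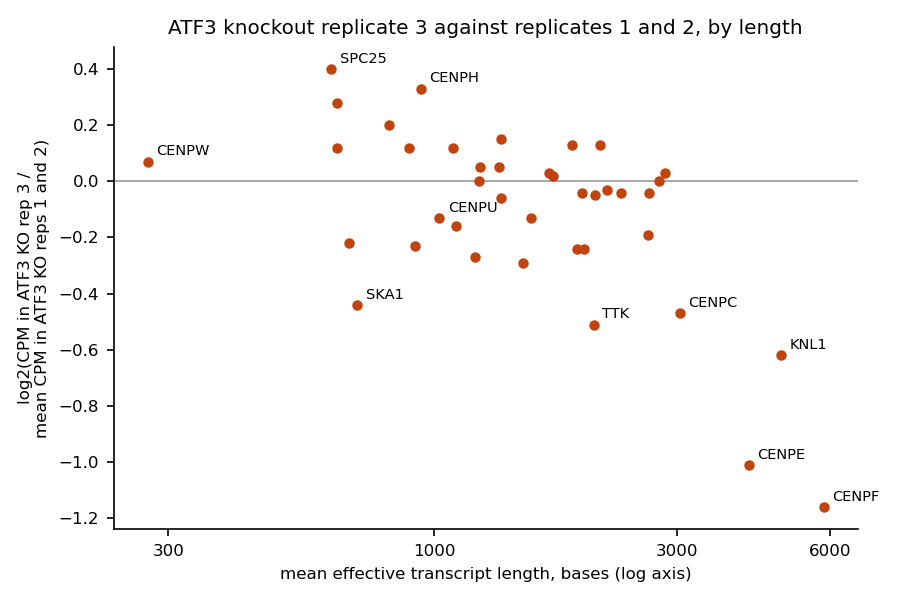
Each point is 1 of the 40 genes, with mean effective transcript length in bases on a log axis and log2 of CPM in ATF3 knockout replicate 3 over the mean of knockout replicates 1 and 2 on the other. CENPF, CENPE and KNL1, the longest, lie at -1.16, -1.01 and -0.62, while CENPU lies at -0.13.

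The spread between replicates was wider in the knockout group. The coefficient of variation of CPM had a median of 11.6% over the members in knockout (1.19% to 46.0%) and 4.83% in wild type (0.866% to 16.3%), and was larger in knockout for 31 of the 40 genes. Over all genes tested the medians were 11% in knockout and 7.81% in wild type, with 62.5% of genes more variable in knockout. CENPF, SKA1 and CENPE had the largest values in knockout, at 46.0%, 40.5% and 36.3%, and CENPU was at 5.22% in knockout and 1.46% in wild type.

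Genes outside the 40 give the setting, beside 9.72% of all genes tested called lower and 11.4% called higher. At an unadjusted p under 0.05, 2308 of the 13131 genes tested were lower and 2595 higher. Of 28 other centromere and kinetochore genes, 5 were called lower and 0 higher (11 lower and 1 higher at an unadjusted p under 0.05), with a median log2 fold change of -0.18. Besides ITGB3BP these were SKA2 (-0.47, adjusted p = 0.0087), the corona protein KNTC1 (-0.52, adjusted p = 0.0122), the microtubule depolymerase KIF2C (-0.39, adjusted p = 0.0159) and TRIP13, the ATPase that remodels MAD2 (-0.42, adjusted p = 0.0387). Of 29 genes of G2 and mitosis 1 was called lower, CKAP2L (-0.69, adjusted p = 0.0111), and the median was -0.19. At an unadjusted p under 0.05, 7 of the 29 were lower and 0 higher, and 25 of the 29 fold changes were below 0. Of 30 genes of G1/S and replication 5 were called lower and 1 higher (12 lower and 3 higher at an unadjusted p under 0.05), with a median of -0.23. Those called included the helicase subunit MCM6 (-0.42, adjusted p = 0.0135), the licensing factor CDT1 (-0.76, adjusted p = 0.0202) and the cyclin CCND3 (0.36, adjusted p = 0.0244), and CDC45 and CDK4 were also called lower. CDKN1A, which encodes the cyclin-dependent kinase inhibitor p21, had 203, 378 and 210 CPM in knockout libraries, against 37.3, 77.8 and 59.2 CPM in wild type libraries, a 4.54-fold rise (log2 fold change 2.18, SE 0.34, adjusted p = 0.011). It was 1 of 2 genes called higher among 16 tested inhibitors and repressors of the cell cycle, a share near that of all genes. The other was the antiproliferative gene BTG2 (1.55, adjusted p = 0.0273). In the same list 3 were called lower: RBL1 (-0.53, adjusted p = 0.0081), LIN54 (-0.27, adjusted p = 0.0472) and LIN9 (-0.48, adjusted p = 0.0477). The remaining 11 did not pass, among them LIN37, which went the other way (0.48, adjusted p = 0.0509). TRIP13, CDC45, CDK4, LIN9 and LIN37 were named after their values were seen. The part of cell cycle state in the members' values was not tested.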

How the data were processed

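Polyadenylated RNA of EoL-1 cells was sequenced in 6 libraries, 3 ATF3 knockout and 3 wild type, made with a stranded mRNA kit according to the labels. Each file, written by Salmon, lists 177456 transcripts. The authors deposited for each transcript an estimated count, a TPM value, a length and an effective length, per the file headers. The submitters' processing notes name Salmon 1.6.0, FastQC 0.11.9 and hg38. Library type, bias options and transcriptome release were not given in the sources used here. Of the deposited estimated counts above 0, 93.0% were not whole. Effective lengths did not differ between libraries, so the deposited TPM follow the mix of transcripts and were used as values alone.

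Transcripts were joined to GENCODE 29 genes of GRCh38 by identifier. The join found 167027 transcripts (155671 at the same version), and the other 10429, with 3.59% to 3.82% of reads, stayed out of library sizes. Current symbols were found for 34878 of 35052 genes. Counts were summed per gene and rounded. edgeR 4.0.16 (R 4.3.3) was used with TMM factors, filterByExpr with a minimum of 10 reads, the quasi-likelihood test and Benjamini-Hochberg adjustment at 0.05 over 13131 genes. Residual degrees of freedom were 4 and the biological coefficient of variation was 16.8%. All CPM carry TMM scaling, and log2 CPM within libraries used a prior count of 2. DESeq2 1.42.0 and limma 3.58.1 (voom) were alternatives.

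The members and all lists were chosen with earlier results of these data known. The text gives full values for CENPU, CENPO, CENPP and CENPQ, all members called, the 5 highest and 5 lowest fold changes and the most abundant gene of each complex. Of the other lists it names at most 4 called genes by smallest p, with exceptions stated in the text, and some genes are not reported here.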

Additional observations from a re-analysis of the deposited data

How the results depend on the processing

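The 13 members called lower kept their sign in all settings run, and 0 members were called higher in any. The count of members called lower was 13 with RLE or upper-quartile factors, 18 with DESeq2, 12 with limma-voom or without the filter on low counts, 11 with protein-coding transcripts alone and 7 with effective lengths as an offset. When 1 library was left out in turn it ran from 0 to 12. Over all genes the counts were 1494 higher and 1276 lower, 723 and 660 with the offset, and from 0 and 0 to 1370 and 1388 with a library left out. Without wild type replicate 1, edgeR called no gene (smallest adjusted p 0.0503, 15 members lower at an unadjusted p under 0.05), while DESeq2 called 10 members lower and limma-voom 1, CENPU. Both were run after seeing the data. The cause was not tested, although fewer samples were fitted. CENPU ran from -1.23 to -1.04 over the other alternatives and from -1.18 to -1.11 with a library left out, and its adjusted p was 0.0503 without wild type replicate 1 (fold change -1.14). CENPU less its partners was -0.90 with protein-coding transcripts alone, -0.52 as fitted with the offset and -0.52 on the deposited TPM, the last 2 run after seeing the data. The members' median was -0.31 with upper-quartile factors and from -0.34 to -0.29 with a library left out. Signs turned for ZWINT (-0.01 with protein-coding transcripts alone, -0.04 without knockout replicate 2) and CENPF (0.19 without knockout replicate 3), neither called. With a library left out, ZWINT ran from -0.04 to 0.16 and CENPF from -0.48 to 0.19.

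The labels do not say whether the replicate numbers pair the samples. Deviations from the group means of same-numbered libraries correlated at -0.092, 0.106 and 0.196. Knockout and wild type libraries of different number correlated at -0.239 to 0.169. With 3 libraries per group these values cannot exclude a batch shared by number. With the replicate block, 9 members were called lower, with 1225 genes higher and 1093 lower in all, and CENPU stayed at -1.14 (adjusted p = 0.0114).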
